A study of Mus musculus with 8 samples.

Results

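Of the 27179 genes in the count table, 8 that were far more abundant in Taf8-deleted than in wild-type embryonic mouse cerebral cortex are described here: Caprin2, Tcta, Acp1, Dok2, Lrrc51, Mafa, Ccl27a and the long noncoding RNA gene 4921531C22Rik. They were chosen by their fold changes and spread between replicates in this same comparison, for large and even rises outside the histone genes, so their own differences between the groups are given as descriptions, with no test. The cortex came from 4 Taf8-deleted embryos, which carry the genotype Taf8 -/lox, and from 4 wild-type embryos (Taf8 +/+), with polyadenylated RNA from 1 embryo in each library. The labels name neither the age of the embryos nor what recombined the lox allele. No first part of an animal number was shared between the groups, and 3 wild-type embryos share theirs, so a litter or batch that such a number may mark cannot be told apart from genotype. Libraries held 26312505 to 52777170 counts in deleted and 30601897 to 65523487 in wild-type cortex, so 3 counts correspond to 0.0469 to 0.112 CPM (counts scaled to a common library size with edgeR), a limit that covers counting error only.

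TAF8 is a subunit of TFIID, the general transcription factor that recognises core promoters and helps RNA polymerase II to start. Some core promoters hold a TATA box, bound by the TBP subunit of TFIID, and many others are rich in G and C and lack one. Many mammalian promoters of the second kind drive a pair of genes that point away from each other. Taf8 itself had 0.643 ± 0.149 CPM in deleted cortex and 34.8 ± 2.75 CPM in wild-type cortex (SD, n = 4 each). Markers of the cells that make up embryonic cortex were present, with summed levels for radial glia of 3085 to 3443 CPM in deleted and 2289 to 2566 CPM in wild-type libraries. Of the 8 radial glia markers 4 were higher, among them Vim and Nes, 2 were lower, Fabp7 and Slc1a3, and 2 did not pass. Over the 15649 genes tested, 29.5% were higher and 29.6% lower (edgeR adjusted p under 0.05). The higher share of these markers was above that of all genes, and the lower share was not. Summed neuron markers were 4959 to 5610 CPM in deleted and 6790 to 8120 CPM in wild-type libraries. In bulk tissue, a change in the number of cells of a type and a change in RNA per cell cannot be told apart.

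The sequences that bear on the arrangement of these genes are the stretches between neighbouring starts, read from RefSeq promoters of build GRCm38.p6 (the sequence of mm10). For 6 of the 8 genes the RefSeq promoter table had an entry, and Dok2 and Mafa are named only. The first stretch lies between the start of Taf4, a TFIID subunit gene, and that of 4921531C22Rik (chr2:179976647-179976852, plus strand). The second lies between the starts of Sh3yl1 and Acp1 as the promoter table lists them (chr12:30911613-30911668, minus strand). The third, shown because it holds the single TATA box found among these promoters, lies upstream of Tcta (chr9:108306170-108306199, minus strand), within the first bases transcribed from Rhoa in the other direction. Capitals mark GC boxes (the letters GGGCGG on either strand, with overlapping ones joined) in the first and second, a reversed CCAAT box in the first, and a TATA box in the third.
4921531C22Rik: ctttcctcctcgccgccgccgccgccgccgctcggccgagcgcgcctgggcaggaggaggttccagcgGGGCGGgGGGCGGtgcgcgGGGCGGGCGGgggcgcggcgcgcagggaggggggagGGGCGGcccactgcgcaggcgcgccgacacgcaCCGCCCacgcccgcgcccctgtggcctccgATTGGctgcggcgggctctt
Acp1: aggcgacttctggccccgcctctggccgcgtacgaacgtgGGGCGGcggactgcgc
Tcta: caccggggcTATAAAagagcgagttgctat

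In the 250 bases before the start, a TATA box (the letters TATAAA) was present on either strand in 1 of the 6 promoters (counting the first listed start of each gene) and in 12.4% of the 32851 promoters in the table. In Tcta its first base was at -31 on the sense strand, and 2.32% of all promoters held one in sense between 50 and 16 bases before the start. The CCAAT box was present in 4 of 6 and in 33.8% of all promoters, and the GC box in 4 of 6 and in 32.7%. The GC content of these 250 bases was 79.2% for 4921531C22Rik, 66.8% for Acp1, 66.4% for Tcta and 65.6% for Caprin2, against a median of 52.4% over all promoters. It was 46.8% at the first listed Ccl27a start and 46.4% at the listed Lrrc51 start, and the Lrrc51 window held none of these motifs. That listed start lies within the Lrrc51 span, 12752 bases from the start of the neighbouring gene Numa1. The window is therefore not the one before the outermost Lrrc51 start. The cyclic AMP response element (TGACGTCA) was found in 0 of the 6 windows and in 1.55% of all promoters. The E-box (CACGTG) was found in 0 of the 6 and in 6.02% of all promoters. Both strands were searched for each motif, and a match describes letters only. The promoters in the table were not limited to the genes tested, and some genes have several of them. Whether the shares differ among promoters of tested genes was not tested.

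Caprin2, Tcta and Acp1 had the replicates that lay closest together. Caprin2 encodes a cytoplasmic RNA-binding protein related to caprin-1 that also promotes phosphorylation of the Wnt coreceptors LRP5 and LRP6 (Entrez gene 232560, chromosome 6, 148842492 to 148896257, minus strand). It had 68.9, 65.5, 63.5 and 66 CPM in deleted libraries, against 16.9, 17.4, 17.8 and 16.6 CPM in wild-type libraries, a log2 fold change of 1.94 (SE 0.04). The lowest deleted library was 3.56 times the highest wild-type library, and the coefficient of variation was 3.37% in deleted and 3.29% in wild-type cortex.

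Tcta, a small membrane protein gene named for a translocation breakpoint in human T-cell leukaemia, lies on chromosome 9 (Entrez gene 102791, 108302955 to 108306159, minus strand). Its level was 51.1, 52.7, 49.9 and 48.1 CPM in deleted libraries, against 15.4, 15.0, 14.7 and 16.1 CPM in wild-type libraries, a log2 fold change of 1.73 (SE 0.05), the smallest of the 8. Acp1 encodes the low molecular weight protein tyrosine phosphatase (Entrez gene 11431, chromosome 12, 30893326 to 30911619, minus strand). Acp1 had 22.8, 21.5, 21.2 and 22.8 CPM in deleted libraries, against 4.84, 5.06, 5.13 and 5.23 CPM in wild-type libraries, a log2 fold change of 2.12 (SE 0.06). For both genes every deleted library lay above every wild-type library by at least 3.0 times.

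The noncoding gene 4921531C22Rik (Entrez gene 66730, chromosome 2, 179976853 to 179979013, plus strand) was nearly as steady. It had 32.1, 29.2, 31.7 and 27.7 CPM in deleted libraries, against 3.45, 3.49, 3.82 and 3.18 CPM in wild-type libraries, a log2 fold change of 3.10 (SE 0.08). Lrrc51, a gene for a leucine-rich repeat protein whose human counterpart is joined to the hearing gene TOMT in the LRTOMT locus, lies on chromosome 7 (Entrez gene 69358, 101912989 to 101933918, minus strand). Lrrc51 had 18.3, 16.7, 14.7 and 14.2 CPM in deleted libraries, against 1.69, 1.99, 1.74 and 2.6 CPM in wild-type libraries, a log2 fold change of 3.00 (SE 0.14). The 2 genes had similar wild-type levels per kilobase of the deposited gene length, both 1.83 CPM per kb, and reached 15.8 CPM per kb for 4921531C22Rik and 14.6 CPM per kb for Lrrc51 in deleted cortex.

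Dok2, Mafa and Ccl27a had the lowest wild-type levels per kilobase of the 8 genes, at 0.402, 0.791 and 0.294 CPM per kb. Dok2 encodes an adaptor that dampens tyrosine kinase signalling in blood cells (Entrez gene 13449, chromosome 14, 70765889 to 70778494, plus strand). Its level was 8.68, 8.11, 9.76 and 7.85 CPM in deleted libraries, against 0.763, 0.972, 0.5 and 0.525 CPM in wild-type libraries, where 20 to 39 reads per library were behind the value (log2 fold change 3.66, SE 0.19). Mafa encodes a basic leucine zipper factor that activates the insulin gene in pancreatic beta cells (Entrez gene 378435, chromosome 15, 75745501 to 75748321, minus strand). It had 5.33, 8.24, 6.73 and 6.15 CPM in deleted libraries, against 1.13, 0.748, 0.516 and 1.02 CPM in wild-type libraries, with 30 to 39 reads in each wild-type library (log2 fold change 3.00, SE 0.23). Neither gene had overlapping groups.

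Ccl27a, a chemokine of the skin that attracts T cells through the receptor CCR10, had the largest fold change of these 8 genes (Entrez gene 20301, chromosome 4, 41769467 to 41774225, minus strand). It had 10.9, 11.1, 20.2 and 11 CPM in deleted libraries, against 0.664, 0.424, 0.407 and 0.236 CPM in wild-type libraries, a log2 fold change of 4.96 (SE 0.30). Deleted replicate 3 stood apart above the other 3 deleted libraries, which lay close together. Wild-type libraries held 9 to 26 reads of this gene, and the lowest deleted library was still 16.4 times the highest wild-type library. Without deleted replicate 3 the deleted mean was 11 CPM, and with it 13.3 ± 4.6 CPM (SD, n = 4).

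**Figure D1:**
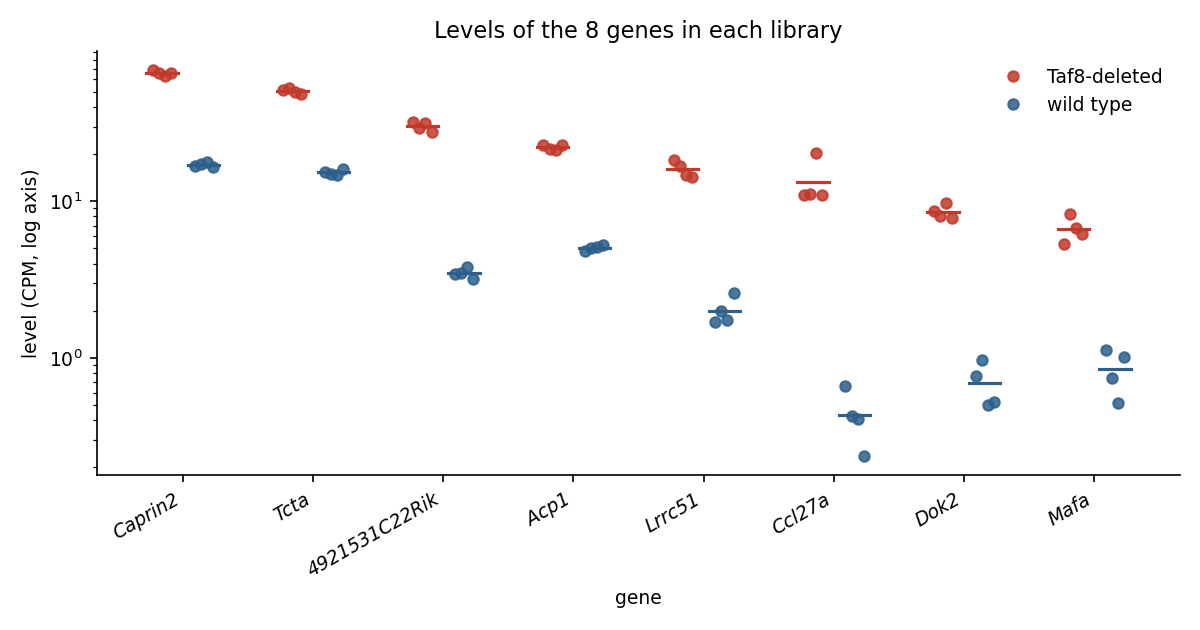
Level of each gene in each library, in CPM on a log axis, with 4 Taf8-deleted libraries (red, left) and 4 wild-type libraries (blue, right) per gene and a bar at each mean. The groups are apart for all 8 genes, and Ccl27a in deleted replicate 3, at 20.2 CPM, sits above the other deleted libraries.

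The groups did not overlap for 8 of these 8 genes, as the choice of members requires, with every deleted library higher in 26.6% of the 15649 genes tested and the groups apart in either direction in 53.6%. By log2 fold change among those 15649 genes, Ccl27a ranked 2, Dok2 15, 4921531C22Rik 36, Mafa 43, Lrrc51 44, Acp1 168, Caprin2 226 and Tcta 310. By level per kilobase, the 8 genes stood in deleted cortex between the 37.7 percentile (Dok2) and the 81.1 percentile (Tcta) of tested genes, and in wild-type cortex between the 7.9 percentile (Ccl27a) and the 50.5 percentile (Tcta). The order of levels per kilobase in deleted cortex was Tcta (31.0 CPM per kb), Caprin2 (18.5), 4921531C22Rik (15.8), Lrrc51 (14.6), Ccl27a (9.04), Acp1 (6.85), Mafa (6.12) and Dok2 (5.01).

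The difference from the wild-type mean, averaged over the 8 genes, was 2.89, 2.91, 2.99 and 2.80 on the log2 scale in deleted replicates 1 to 4. These libraries were used to choose the genes, so high values in each of them are fixed by the choice. Single genes did not share an order of embryos. Deleted replicate 4 was the lowest for Tcta, Dok2, Lrrc51 and 4921531C22Rik, replicate 3 for Caprin2 and Acp1, and replicate 1 for Mafa and Ccl27a. Caprin2 and Acp1 had the most similar profiles of any 2 of the genes, with a root mean square difference of 0.097 log2 units over the 8 libraries after centring, while Ccl27a and Tcta were the farthest apart, at 1.606.

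Among all genes tested, those with the closest profile by the same measure were Zfp296 (0.051) and BC031361 (0.080) for Caprin2, Ccdc189 (0.063) for Tcta, and Samd15 (0.085) and then Caprin2 for Acp1. For Dok2 they were the histone demethylase gene Kdm4d (0.213) and the homeobox gene Dbx1 (0.256). Lrrc51 was closest to the histone genes H1f2 (0.130) and H2bc22 (0.142), and Ccl27a to the histone gene H4c8 (0.440) and to Gm16796 (0.602). Mafa was closest to Gm4961 (0.176), and 4921531C22Rik had Gm10785 (0.169) among its closest 2. A close profile here mostly means a similar fold change, and reads of the histone genes may be split among their copies.

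The genes around each member were compared next, to ask whether whole neighbourhoods were higher. Neighbours were every overlapping gene and the 3 nearest on each side, 51 genes of which 39 were tested. Of the 39, 10 were higher and 12 lower in deleted cortex and 17 did not pass (edgeR quasi-likelihood test, adjusted p under 0.05), so 56.4% were called against 59.2% of all genes tested, 25.6% were higher against 29.5%, and 30.8% lower against 29.6%. Their log2 fold changes ran from -0.76 to 1.59 with a median of -0.02, against 0.01 over all genes. No neighbour reached the rise of the gene it lies beside, which the choice of the members for large rises makes likely in advance.

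Only 2 of the 39 neighbours were more than 2-fold higher, which is 5.13% against 5.85% of all genes tested. The larger change was that of 3010003L21Rik, a noncoding gene 48599 bases upstream of Caprin2, at 14.1 ± 1.48 CPM in deleted and 4.7 ± 0.616 CPM in wild-type cortex (SD, n = 4 each, log2 fold change 1.59, SE 0.11, edgeR adjusted p = 1.08e-06). The other was Fgf17, a growth factor gene of the early forebrain midline 123620 bases from Dok2, at 5.24 ± 0.92 CPM in deleted and 2.26 ± 0.586 CPM in wild-type cortex (SD, n = 4 each, edgeR adjusted p = 0.000351).

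Of the 16 tested genes that lie nearest to a member on each side, 3 were higher, 3 lower and 10 did not pass. That is 18.8% higher against 29.5% of all genes tested, 18.8% lower against 29.6%, and 37.5% called against 59.2%. Rhpn1, beside Mafa, had 28.7 ± 1.57 CPM in deleted and 15.9 ± 1.9 CPM in wild-type cortex (SD, n = 4 each, log2 fold change 0.85, SE 0.08, edgeR adjusted p = 9.9e-06). Zc3h3, on the other side of Mafa and closer to it, did not pass (log2 fold change 0.13, edgeR adjusted p = 0.238). Tmem18, a nuclear membrane protein gene 302106 bases from Acp1, had 42.1 ± 0.469 CPM in deleted and 25.1 ± 1.12 CPM in wild-type cortex (SD, n = 4 each, log2 fold change 0.75, SE 0.04, edgeR adjusted p = 3.96e-07). Taf4, beside 4921531C22Rik, was the other higher gene.

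The lower ones were Rhoa and Amt beside Tcta and Lamtor1 beside Lrrc51. Amt, an enzyme of the glycine cleavage system, had 16.3 ± 0.658 CPM in deleted and 22.8 ± 2.1 CPM in wild-type cortex (SD, n = 4 each, log2 fold change -0.48, SE 0.07, edgeR adjusted p = 0.000187). Ipo8 and Sinhcaf beside Caprin2 (log2 fold changes 0.05 and 0.10) and Npm2 and Gfra2 beside Dok2 (-0.09 and -0.23) did not pass. Galt beside Ccl27a (-0.09), Lsm14b beside 4921531C22Rik (-0.07), Sh3yl1 beside Acp1 and Numa1 beside Lrrc51 did not pass either. On the other side of Ccl27a the 3 nearest genes had 0 reads, and the nearest tested one, Phf24, lay 1098392 bases away. Phf24, which is not among the neighbours counted above, did not pass (-0.13). Il11ra1, which overlaps Ccl27a, had a log2 fold change of 0.34 and did not pass (edgeR adjusted p = 0.055).

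**Figure D2:**
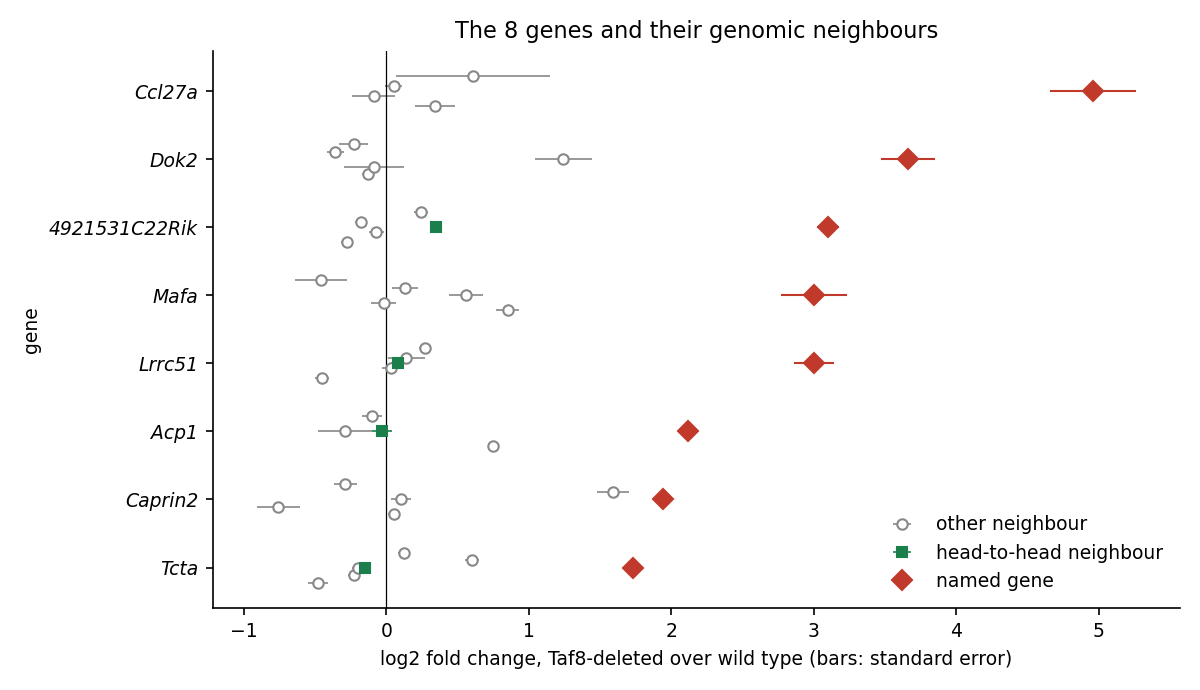
Log2 fold change, Taf8-deleted over wild type, of each of the 8 genes (red diamonds) and of its tested neighbours (open grey circles, or green squares where the 2 genes start within 1000 bases of each other on opposite strands), with bars of 1 standard error. The 8 genes lie between 1.73 and 4.96, while the neighbours lie between -0.76 and 1.59.

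A head-to-head neighbour, transcribed in the opposite direction from a start at most 1000 bases away, was found for 4 of the 8 genes. Over all genes tested with a known strand, 17.3% (2620 of 15114) had such a neighbour. Tcta and Rhoa start 1 base apart, Acp1 and Sh3yl1 50 bases, Lrrc51 and Numa1 59 bases, and 4921531C22Rik and Taf4 207 bases, measured between the outermost RefSeq starts. All 3 GENCODE transcripts of Tcta, 5 of 6 of Acp1 and both of 4921531C22Rik start within 1000 bases of the partner's start, but only 5 of 10 of Lrrc51 do, and the Lrrc51 start in the promoter table is 12752 bases from that of Numa1.

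In each of these 4 pairs the partner differed far less between the groups than the member did. Rhoa, a small GTPase gene that controls the actin cytoskeleton, had 143, 148, 151 and 152 CPM in deleted libraries, against 163, 172, 160 and 166 CPM in wild-type libraries. It fell slightly, by 0.15 on the log2 scale (SE 0.04, edgeR adjusted p = 0.00645). Sh3yl1, a lipid-binding SH3 domain protein gene, had 21.7, 23.7, 23.9 and 24.7 CPM in deleted libraries, against 22, 23.2, 27.1 and 23.5 CPM in wild-type libraries, and did not pass (log2 fold change -0.03, SE 0.07, edgeR adjusted p = 0.74). In both groups Sh3yl1 and Rhoa varied between libraries by less than Acp1 and Tcta differed between groups.

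Numa1, a spindle pole gene, had 409, 407, 387 and 378 CPM in deleted libraries, against 394, 385, 339 and 382 CPM in wild-type libraries, and did not pass (log2 fold change 0.08, SE 0.05, edgeR adjusted p = 0.233). Taf4, a scaffold subunit of TFIID, had 83.1, 84.9, 81.4 and 87.9 CPM in deleted libraries, against 68.7, 69.3, 63.4 and 63.4 CPM in wild-type libraries. Taf4 rose in every deleted library relative to every wild-type library, with a log2 fold change of 0.35 (SE 0.04, edgeR adjusted p = 6.93e-05), while 4921531C22Rik on the other side of the same stretch differed by 3.10. The gap between member and partner was 1.88 log2 units for Tcta, 2.15 for Acp1, 2.75 for 4921531C22Rik and 2.92 for Lrrc51. Over all 1313 head-to-head pairs of tested genes the median absolute gap was 0.44, and 83, 51, 17 and 10 pairs had a larger gap than those 4. These gaps include the rise for which the members were chosen.

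**Figure D3:**
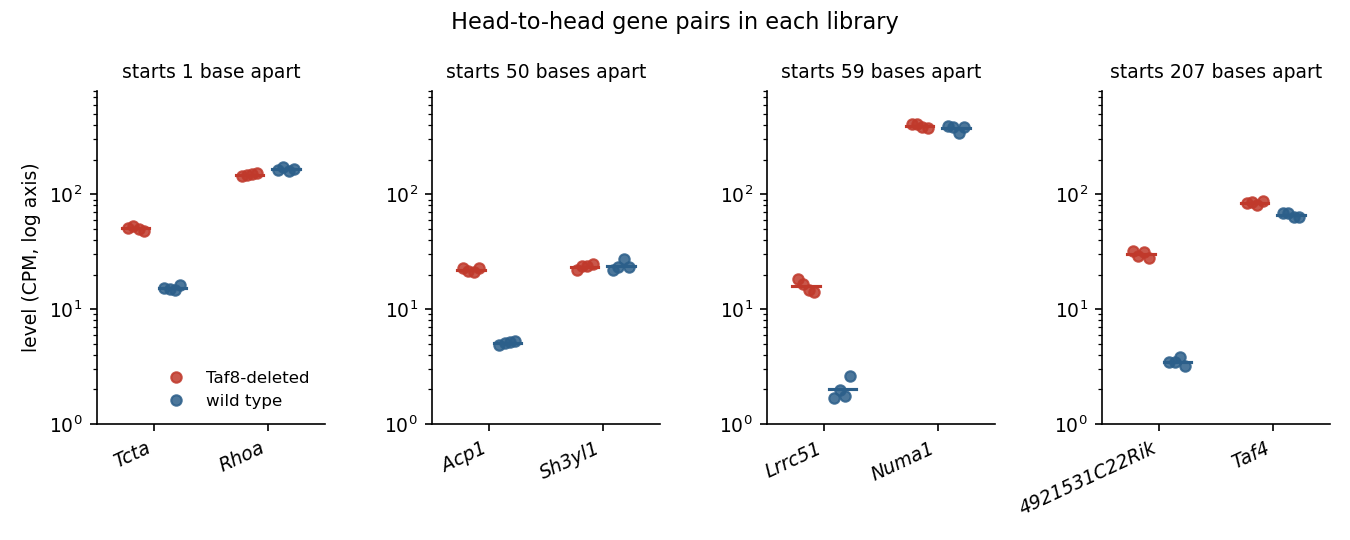
Levels in CPM on a log axis of 4 genes and of the gene that starts next to each in the opposite direction, in 4 Taf8-deleted (red, left) and 4 wild-type (blue, right) libraries, with a bar at each mean. The left gene of each pair is higher in deleted cortex, while Taf4 is slightly higher and Rhoa slightly lower in deleted cortex, and Sh3yl1 and Numa1 overlap between the groups.

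Exons shared with a gene on the opposite strand matter for these counts, because the sources do not say whether strand was used in counting, and without it such reads cannot be told apart. By GENCODE M21 exons, 49.6% of the exon bases of Lrrc51 overlap Lamtor1, a lysosomal signalling gene on the other strand. Lamtor1 fell, at 29.4, 31.2, 33.2 and 30.6 CPM in deleted libraries, against 44.8, 42.8, 39.8 and 42.2 CPM in wild-type libraries (log2 fold change -0.45, SE 0.05, edgeR adjusted p = 3.68e-05). Lrrc51 and Lamtor1 therefore differed in opposite directions. Of the Acp1 exon bases 14.6% overlap Alkal2, which had 28 reads in all 8 libraries together. The overlap was 3.15% of 4921531C22Rik with Taf4, 1.74% of Tcta with Rhoa and 0.337% of Ccl27a with Il11ra1, and Caprin2, Dok2 and Mafa had none. The spans of Dok2 and Xpo7 overlap in RefSeq without shared GENCODE exons, and Xpo7 fell by 0.13 on the log2 scale (edgeR adjusted p = 0.00933).

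Near-identical copies were sought as stretches of 81 bases, the read length in the design text, that also occur in transcripts of another gene. None was found for Tcta, Dok2, Mafa and 4921531C22Rik. For Ccl27a, 31.1% of its 2877 such windows recur in the same direction in 5 other genes of its cluster, among them Gm20878 (18.7%), Gm13306 (15.8%) and Ccl27b (5.87%). The longest Gm13306 protein was 99.3% identical to that of Ccl27a over 82.3% of the length of Ccl27a, and Ccl27b was 96.9% identical over 59.8%. Over all 8 libraries Gm13306 had 1 read and Ccl27b, Gm20878, Gm21586 and Gm21953 had 0, so the rise stands in the row of Ccl27a alone and the copies could not be tested. The sources do not say how reads that map to several places were treated, so a share of the copies in the Ccl27a reads cannot be told apart.

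Acp1 shares 10.7% of its 3865 windows with processed pseudogenes in the same direction, Gm14388 (6.86%), Gm1866 (3.91%) and Gm6197 (1.29%), which were not analysed here. Caprin2 shares 0.309% of 14568 windows with other genes, in stretches of at most 39 windows in any of them. The 32.9% of Lrrc51 windows that recur elsewhere all lie on the opposite strand, in Lamtor1.

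Relatives and partners of the 8 genes mostly did not pass. The choice of members did not use them, but the lists were made with earlier results of these data known. Of 98 such genes counted, 54 were tested, and 9 were higher, 15 lower and 30 did not pass, so 44.4% were called against 59.2% of all genes tested. The higher share was 16.7% against 29.5%, and the lower share 27.8% against 29.6%. Their median log2 fold change was -0.04. Around Caprin2, 3 of 9 stress granule and LRP6 partners were higher and 4 lower, with Caprin1, the closest relative, at 777 ± 18.0 CPM in deleted and 943 ± 44.8 CPM in wild-type cortex (log2 fold change -0.28, SE 0.04, edgeR adjusted p = 0.000148). Usp10, which binds the stress granule protein G3BP1, fell by 0.35 and the LRP6 kinase gene Cdk14 by 0.37 on the log2 scale. Among genes that share a C1q domain with Caprin2, 3 of 6 tested were higher and 2 lower. The synapse organiser Cbln1 rose by 0.52 and C1ql1 by 0.56 on the log2 scale, while Cbln4 fell by 0.92.

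Of the 6 other DOK genes 5 were lower and Dok1 was higher. Of 10 tested DOK genes and partners 5 were lower and 2 higher, and 3 did not pass. That is 50% lower and 20% higher, against 29.6% lower and 29.5% higher of all genes tested. Dok5, an adaptor of neuronal receptor kinases, had 10.4, 11.4, 13.1 and 10.8 CPM in deleted libraries, against 26.2, 30.2, 30.9 and 27.0 CPM in wild-type libraries (log2 fold change -1.33, SE 0.08, edgeR adjusted p = 5.74e-07). Dok3, an inhibitory adaptor of blood cells, had 2.69, 2.92, 2.39 and 3.21 CPM in deleted libraries, against 8.2, 7.28, 5.99 and 6.94 CPM in wild-type libraries (log2 fold change -1.32, SE 0.13, edgeR adjusted p = 9.4e-06). Dok6 fell by 0.70, and the higher ones were Dok1, by 0.71 on the log2 scale, and the endothelial receptor gene Tek, by 0.31.

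Markers of the blood cells in which DOK2 is known to act were set beside Dok2, and their counts stand against 29.5% higher and 29.6% lower over all genes tested. Lymphocyte markers summed to 0.679 to 1.2 CPM in deleted and 0.394 to 0.531 CPM in wild-type libraries, and all 11 were under 1 CPM in every library, with Cd3e and Ncr1 at 0 reads. The 2 that were tested, Trbc2 and Cd79a, both rose, by 1.54 and 1.08 on the log2 scale. Microglia and macrophage markers summed to 54.1 to 70.8 CPM in deleted and 48.3 to 55.3 CPM in wild-type libraries, with 6 of 11 higher and 1 lower. Megakaryocyte and platelet markers summed to 14.1 to 15.1 CPM in deleted and 12.7 to 15.1 CPM in wild-type libraries, with 1 of 2 tested higher, by 1.12 on the log2 scale. Red blood cell markers summed to 341 to 466 CPM in deleted and 256 to 330 CPM in wild-type libraries, with 5 of 7 higher. The part of these cells in the Dok2 and Ccl27a values was not tested.

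Large and small MAF, BACH and NFE2-like factors, which bind DNA as partners or relatives of MAFA, were lower in 3 of the 9 tested here, and 6 did not pass. The lower share, 33.3%, was near the 29.6% of all genes tested. Nfe2l3 had 2.37 ± 0.106 CPM in deleted and 11.5 ± 2.43 CPM in wild-type cortex (SD, n = 4 each, log2 fold change -2.29, SE 0.15, edgeR adjusted p = 6.81e-07). Maf fell by 0.62 and Nfe2l2 by 0.26 on the log2 scale. Of 12 genes of pancreatic beta cells, where MAFA acts, 0 of 4 tested passed by edgeR, with 0 at an unadjusted p under 0.05, 0 called by DESeq2 and 0 by limma voom. The insulin genes had 0 reads for Ins1 in every library and 3 reads in deleted and 2 reads in wild-type libraries for Ins2, and Pdx1 had 0.

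CC chemokines other than Ccl27a were scarce and did not pass. Only 4 of 19 were tested, Ccl28, Ccl25, Ccl9 and Ccl3, and 0 of them passed by edgeR, with 0 at an unadjusted p under 0.05, 0 called by DESeq2 and 0 by limma voom. Ccl28, the nearest relative outside the cluster (45.7% identity over 42.7% of the Ccl27a protein) and a ligand of the same receptor, had 3.1 ± 2.0 CPM in deleted and 1.48 ± 1.41 CPM in wild-type cortex (SD, n = 4 each, log2 fold change 0.95, edgeR adjusted p = 0.20). Over 19 alternative settings the log2 fold change of Ccl28 ran from 0.54 to 1.96, and it passed in 2 of them. The highest value came from leaving out wild-type replicate 3 (edgeR adjusted p = 0.00743). The 15 untested chemokines averaged at most 0.273 CPM in deleted and 0.118 CPM in wild-type cortex. Ccr10, the receptor of Ccl27a, had 1 read in the deleted and 3 reads in the wild-type libraries together.

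Of the 11 CC chemokine receptors counted here 2 were tested, Ackr2 and Ccr1, and neither passed (log2 fold changes 0.05 and -0.03). Of 3 tested acid phosphatases, enzymes that share only a name and activity with Acp1, Pxylp1 was lower by 0.13 on the log2 scale, a call lost in 9 of 19 alternative settings, and Acp2 and Acp6 did not pass. The lower share, 33.3%, was near the 29.6% of all genes tested. Osteoclast formation is a process that human TCTA has been reported to restrain. Of 6 tested genes of this process 1 was higher, which is 16.7% against 29.5% of all genes tested. That gene, Oscar, an osteoclast receptor, had 1.58, 1.04, 1.38 and 1.0 CPM in deleted libraries, against 0.232, 0.274, 0.0 and 0.0 CPM in wild-type libraries (edgeR adjusted p = 0.0011). The fitted log2 fold change of Oscar, 3.47, ran from 2.88 to 4.61 over the alternative settings, and its reads numbered 182 in the deleted and 18 in the wild-type libraries together. Tomt, the neighbour of Lrrc51, averaged 0.128 CPM in deleted and 0.0593 CPM in wild-type cortex and was not tested.

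**Figure D4:**
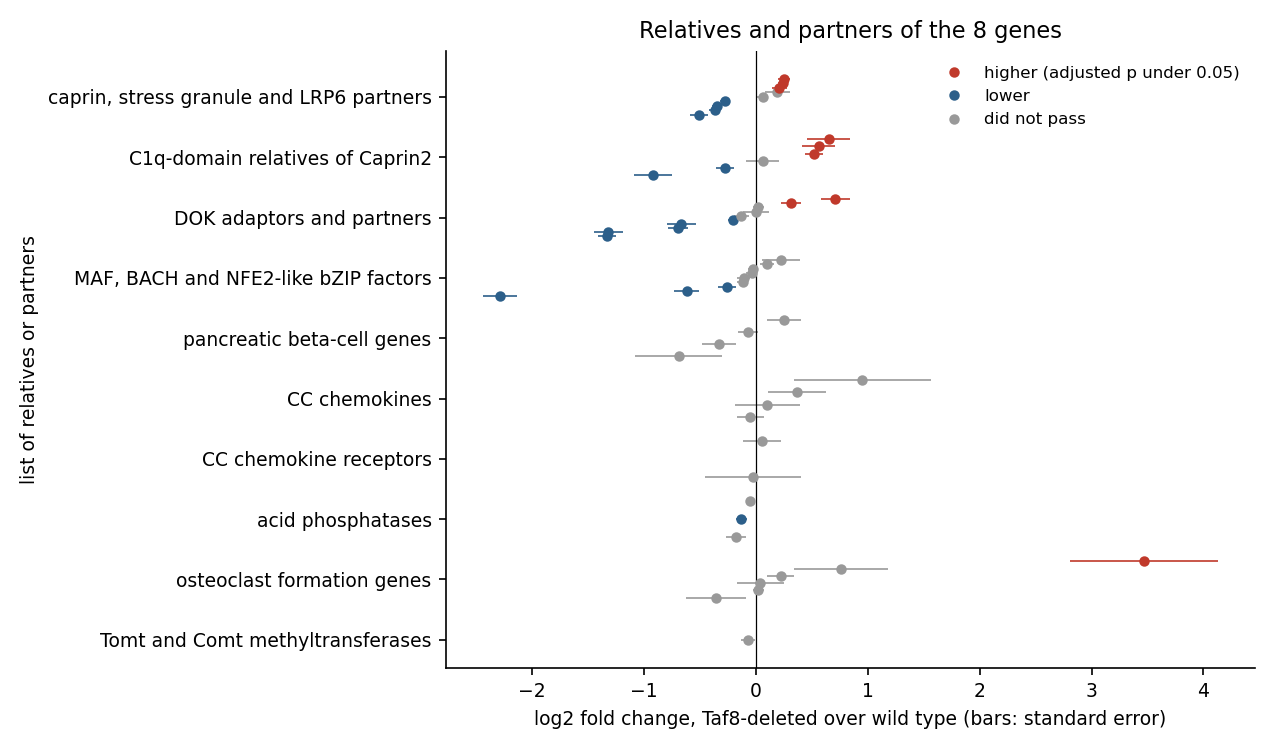
Log2 fold change, Taf8-deleted over wild type, of each tested relative or partner of the 8 genes, by list, with bars of 1 standard error, in red where higher, blue where lower and grey where the test was not passed. Values run from -2.29 (Nfe2l3) to 3.47 (Oscar), and the other 8 higher genes lie at or below 0.71.

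Tissue at the edge of the cortex differed between libraries, and its marker counts too stand against 29.5% of all genes tested being higher. Choroid plexus markers summed to 1206, 83.2, 197 and 14.5 CPM in deleted replicates 1 to 4, against 15.7, 16.8, 22.6 and 404 CPM in wild-type replicates 1 to 4. Meningeal fibroblast markers summed to 69.5, 121, 145 and 27.0 CPM in deleted libraries, against 28.9 to 47.3 CPM in wild-type libraries, with 5 of 8 markers higher. Endothelial and pericyte markers summed to 205 to 257 CPM in deleted and 175 to 184 CPM in wild-type libraries, with 8 of 8 higher, and their part in these results was not tested.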

How the data were processed

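Per the submitters' processing notes, reads were processed with Subread 1.5.0 and featureCounts on mm10. The deposited values are unnormalized counts, 1 row for each Entrez gene, with the gene length beside them. Which annotation and strand setting were used is not stated. The library kit kept strand, per the labels' protocols. The matrix and the single-sample files differed in 0 values. Symbols came from RefSeq for 25275 genes and from GENCODE M21 for 18, and 1886 had none.

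The test was edgeR's quasi-likelihood test (version 4.0.16, R 4.3.3, filterByExpr, TMM factors, Benjamini-Hochberg adjustment over 15649 genes, threshold 0.05). SE is the log2 fold change over the square root of F. CPM uses TMM-scaled library sizes. Log2 CPM uses a prior count of 2. The test was also run on simulated counts in which a small part of the genes changed, as many up as down. In these data 59.2% of genes tested were called, a case that the simulation does not cover.

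The members and lists were chosen with earlier results of these data known. Named genes are the members, their overlapping and nearest tested neighbours, their copies, up to 3 genes of each list by adjusted p, and for each member the 2 closest profiles. 3010003L21Rik, Fgf17 and some list genes with higher p were named after their values were seen. Copies were judged from GENCODE transcripts (81-base windows on both strands) and, for protein identity, from their translated coding parts. No 2 libraries of a group were alike within sampling noise (chi-square 3.7 to 28.37 per degree of freedom). Alternatives were other scalings and filters, DESeq2 1.42.0, limma 3.58.1 voom, a replicate block, a threshold of 0.01, the single-sample files and leaving out libraries. A few genes of the lists are not reported here and are in none of the list counts.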

Additional observations from a re-analysis of the deposited data

Results flagged for a closer look

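In groups of 4 libraries, a library was picked out where its gap to the nearest other exceeded Dixon's 95% critical value, which chance alone does in about 1 of 20 groups. Of 156 groups checked 8 exceeded it, close to that rate. Among the 8 genes this held for Ccl27a in deleted replicate 3, at 20.2 CPM against 10.9 to 11.1 CPM in the other deleted libraries. Meningeal markers summed to 69.5, 121, 145 and 27.0 CPM in deleted replicates 1 to 4, where Ccl27a had 10.9, 11.1, 20.2 and 11 CPM. Both were highest in replicate 3, but replicates 2 and 4 differed widely in these markers and hardly in Ccl27a. The part of meningeal tissue in the Ccl27a value was not tested. Among neighbours, Ipo8 was low in deleted replicate 2 (78.4 CPM against 80.9 to 81.3). Phf24, the nearest tested gene to the right of Ccl27a but 1098392 bases away, was high in deleted replicate 1 (30 CPM against 27.4 in the others).

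Among relatives and partners, Usp10 was low in wild-type replicate 3 (146 CPM against 157 to 160) and Ccl28 was high there (3.58 CPM against 0.683 to 0.922). Summed choroid plexus markers were high in deleted replicate 1 (1206 CPM against 14.5 to 197) and in wild-type replicate 4 (404 CPM against 15.7 to 22.6), and summed neuron markers were high in wild-type replicate 3 (8120 CPM against 6790 to 6905).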

How the results depend on the processing

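The log2 fold changes of the 8 genes stayed positive under each of 18 alternatives and moved by less than the spread between replicates, with ranges of 4.68 to 5.16 for Ccl27a, 3.5 to 3.87 for Dok2, 2.78 to 3.22 for Mafa and 1.69 to 1.77 for Tcta. The genes were chosen from these same libraries for large and even rises, so this steadiness is largely fixed by the choice. The single-sample files, among the alternatives, hold the same counts as the matrix. The median of the 8 genes was 3.00, and 2.85 to 3.08 when 1 library was left out. Of the neighbours 22 were called, with 20 to 22 when 1 library was left out. With the nearest gene on each side only, 6 of 14 tested were called (42.9%, 3 higher, 3 lower), and with neighbours on the same strand only, 6 of 16 (37.5%, 2 higher, 4 lower), against 56.4% of all neighbours, and the cause was not tested. Relatives and partners called numbered 24, and 22 to 28 when 1 library was left out. Same-numbered libraries of the 2 groups deviated with correlations of -0.464 to 0.014, so the numbers share only a name. With a replicate block 8285 genes were called, against 9257 without it, and 20 neighbours. Rhoa and Taf4 kept their calls under every alternative run (log2 fold changes -0.18 to -0.11 and 0.31 to 0.39), and Numa1 and Sh3yl1 never passed, with Sh3yl1 between -0.08 and 0.04. Pxylp1 lost its call in 9 of 19 alternatives, and the cause was not tested. Without the library richest in choroid plexus markers in each group, a choice made after seeing the data, the median of the 8 genes was 3.05.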
